A study of Rattus norvegicus with 4 samples.

Results

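The arrays used on these rat hearts carry probes for human, mouse and rat miRNAs side by side, and the probes described here are those whose name lists mouse and neither rat nor human. A miRNA is a short RNA that pairs with messenger RNAs mainly through its seed, the stretch near its 5′ end, and lowers their output. Such a probe can give signal in a rat heart in several ways: rats may have the miRNA under a name that the array version did not yet list, or a related rat RNA may bind the probe. The intensities do not tell these apart, and which of them applied was not tested. Members were chosen by their signal: a mouse-only probe counted when at least 50% of its 4 spots exceeded the local background by over 2 background SDs on at least 1 of the 2 arrays of a day. That gave 85 of 234 mouse-only probes at day 2, on an array with 1618 miRNA probes, and 27.2% of 522 at day 14, on an array with 2143 (94 on both arrays, 28 after MI only and 20 after sham surgery only). Detection and level are therefore descriptions and not findings.

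The 4 groups were hearts of male Wistar rats 2 days after myocardial infarction (MI), 2 days after sham surgery, 14 days after MI and 14 days after sham surgery. MI was made by opening the chest and pericardium and tying the left anterior descending coronary artery, whereas sham rats had only the chest and pericardium opened. Each group was 1 array of RNA pooled from 3 rats, so no comparison has a replicate check, no test was run, and the ± values are the spread of the 4 spots of a probe on 1 array. In whole hearts, fewer cells of a type and less RNA per cell cannot be told apart. The RNA input was 1 µg for the earlier hearts and 500 ng for the later ones, on different array versions, so levels were not compared between days.

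One header goes against its label. The scan labelled day 2 sham names an image with a mouse prefix, while the other 3 headers carry a rat prefix. On the day 2 arrays 85 mouse-only probes were detected after MI and 63 after sham surgery, a sham count 0.741 times that of MI. As shares of the probes on the array these are 36.3% and 26.9%. The same ratio was 0.834 for rat probes (57.2% detected after MI and 47.7% after sham surgery), 0.80 for rat-only probes and 0.791 for human-only probes. These counts move with background and do not settle what the library labelled day 2 sham holds, and the part of the prefix in the results was not tested. At day 14 mouse-only probes were detected at 23.4% after MI and 21.8% after sham surgery, and human-only probes at 14.0% after MI and 12.9% after sham surgery. The median local background of the day 2 sham array was 322, against 131 on the MI array of that day, and 1 of its 4 sets of spots, numbered 4 here, was dim: there the members' median deviation from their own probe median was -0.55 on the log2 scale.

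Blank and negative control spots passed the same limit at low rates. Of 636 empty spots on each day 2 array, 1 passed on the MI array and 2 on the sham array, and of 1108 on each day 14 array, 4 passed on the MI array and 17 on the sham array. Of 28 negative control spots 2 passed on the MI array and 0 on the sham array at day 2, and 0 passed on the MI array and 1 on the sham array at day 14. At day 2 the members nearest to the limit were miR-1198, miR-715 and miR-297c, whose second-highest spot lay 2.09, 2.13 and 2.28 background SDs above background. Just outside were miR-92a*, miR-712 and miR-721 at 1.92, 1.91 and 1.80. At day 14 miR-669f-5p, miR-467c* and miR-466n-5p lay just inside at 2.00, 2.01 and 2.02, and miR-466a-5p, miR-741 and miR-881* just outside at 1.95, 1.91 and 1.90. Another probe, shared by miR-466a-5p and miR-466p-5p, was detected at day 14, after MI only.

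Some members have a rat counterpart by name. RefSeq lists a rat mature miRNA of the same name for 12 of the 85 members at day 2 and 15 of those at day 14, and a rat hairpin of that name for 35 and 37. The probe sequences are not used here, so the rat sequences below, from RefSeq on build GRCr8, show what rat RNA could be measured under the mouse name. They are the rat counterparts or nearest relatives of the probes that the results turn on, with the seed (bases 2 to 8) in capitals.
rno-miR-709: gGAGGCAGaggcaagagga
rno-miR-511-3p: aAUGUGUAgcaaaagacagga
rno-miR-878: gCAUGACAccauacuggguaga
rno-miR-199a-5p: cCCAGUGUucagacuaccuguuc
rno-miR-17-5p: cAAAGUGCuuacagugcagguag
rno-miR-20a-5p: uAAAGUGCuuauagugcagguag
rno-miR-106b-5p: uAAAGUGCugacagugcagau
rno-miR-93-5p: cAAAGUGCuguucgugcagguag
rno-miR-466b-5p: uAUGUGUGuguguauguccaug
rno-miR-466c-5p: uGUGAUGUguguauguacaug
rno-miR-466d: aUGUGUGUguauguucuuuugu
rno-miR-297: aUGUAUGUgugcauguaugcaug

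The first of these lies on chromosome 19 at 40977573 to 40977591, minus strand, in Mir709. Rat miR-511-3p lies on chromosome 17 at 82188001 to 82188021, plus strand, in Mir511. The rat gene that RefSeq calls Mir106a, on chromosome X, gives a mature RNA listed as miR-17-5p at 137343615 to 137343637, minus strand, which is the same sequence as that of Mir17 on chromosome 15. Which rat RNA the mouse-only probe miR-106a reads was not tested. The 4 sequences of the miR-17 group share the seed AAAGUGC, carried by 5 rat mature miRNAs in all, and miR-17-5p and miR-20a-5p have the same base at 21 of 23 positions. The miR-466 sequences are rich in UG repeats: UGUGUGU occurs in miR-466b-5p, miR-466c-5p and miR-466d, and in 5 of 693 rat mature miRNAs (0.722%). Among themselves they are less alike, with 15 of 22 bases shared by miR-466b-5p and miR-466d in the best ungapped alignment.

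The newer array shows how far names had moved. Of the 234 mouse-only probes of day 2, 43 carried a rat name on the day 14 array under the same probe identifier, 171 were still mouse-only and 20 were not on it. Among the 43 that gained a rat name, 11 (25.6%) had been detected at day 2, and among the 171 that did not, 66 (38.6%) had. The 6 probes with a new rat name that were detected at both days were miR-294*, miR-362-3p, miR-433*, miR-667, miR-675-5p and miR-883a-5p. miR-675 is processed from the imprinted transcript H19, and miR-433 and miR-667 belong to the imprinted Dlk1-Dio3 cluster. The probe miR-433* had a level of 12.95 after MI and 13.37 after sham surgery at day 2, and 9.85 after MI and 9.68 after sham surgery at day 14. The probe miR-675-5p read 10.93 after MI and 11.01 after sham surgery at day 2, and 9.78 after MI and 9.31 after sham surgery at day 14. None of the 11 differed 2-fold at day 2.

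At day 2 few members differed 2-fold between MI and sham hearts. Of 84 members with a measurable difference, 0 were higher and 1 was lower by at least 2-fold (1.19%), against a background of 3.67% over all 572 miRNA probes with one (2.62% higher and 1.05% lower) and 5.35% over rat probes (4.28% higher and 1.07% lower). With no normalization 0 members were higher and 9 lower, and with local background subtracted 19 were higher and 4 lower. The median difference of the 61 members detected on both arrays and not saturated was 0.03, and that of all such miRNA probes was 0.04. No member was detected only after sham surgery, and 22 were detected only after MI, where the local background was lower. Over all 593 detected miRNA probes, 6 were detected only after sham surgery and 123 only after MI.

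The member past 2-fold was miR-878-3p, a miRNA of the X chromosome in rat. Its level was 10.63 ± 0.48 after MI and 11.96 ± 0.20 after sham surgery, a log2 difference of -1.33 with a spot SE of 0.26, and the spots of the arrays did not overlap. The rat probe for miR-878 read 8.72 after MI and 9.06 after sham surgery, a difference of -0.35, and its spots overlapped. Levels of different probes are not comparable, and the rat probe lay near the lowest detected level, so the differences are given side by side only.

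The other low members were within 2-fold in the values given here. miR-804 read 9.33 ± 0.08 after MI and 10.14 ± 0.06 after sham surgery, a difference of -0.81. The shared probe of miR-297a*, miR-297c* and miR-297b-3p read 11.74 after MI and 12.44 after sham surgery, a difference of -0.70. Both were separated in all spots. miR-483, from an intron of Igf2, had -0.63 and miR-489 had -0.58, with overlapping spots. Under 4 of the 10 other ways of processing miR-804 (-1.51 with no normalization) and miR-483 (-1.43 with local background subtracted) were past 2-fold. With no normalization miR-201 (-1.36) and miR-489 (-1.03) were too, and miR-201 also was with local background subtracted (-1.13). The rest of the 10 lowest were miR-691 (-0.45), miR-201 (-0.42), miR-433* (-0.41), miR-742 (-0.40) and miR-582-3p (-0.37).

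For several of the highest members at day 2 the sham spot of set 4 was low. miR-1187 read 10.11 ± 0.10 after MI and 9.34 ± 0.74 after sham surgery, a difference of 0.78. Its sham spots were 9.68, 9.70, 9.74 and 8.22, so that of set 4 stood apart. miR-882 read 11.21 after MI and 10.49 after sham surgery, with a sham spot of 9.37 in set 4. miR-669d (0.63), miR-467f (0.52), miR-669e (0.50), miR-685 (0.45), miR-468 (0.43), miR-466a-5p (0.42) and miR-199b* (0.40) were also among them. For miR-199b* the sham spots were 12.52, 12.75, 12.82 and 8.97, and the spot SE was 0.93. Without set 4 the differences were 0.44 for miR-1187, 0.35 for miR-882, 0.32 for miR-468, -0.06 for miR-466a-5p, 0.18 for miR-669d and -0.51 for miR-199b*. Of the probes detected only after MI, miR-466f-5p was at least 1.43-fold, miR-881* at least 1.31-fold and miR-669h-3p at least 1.27-fold higher. Without set 4 these bounds were 0.27, 0.22 and 0.03 on the log2 scale.

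The brightest members at day 2 gave little to compare. miR-709 was saturated on both arrays and has no fold. miR-690 had a median foreground of 60814 after MI and was saturated after sham surgery. After miR-691 came miR-433*, miR-467e*, miR-503*, miR-667, miR-1192, miR-582-3p and miR-875-3p, with differences between -0.41 and 0.02. miR-503* is the other arm of the miR-503 hairpin, which is made together with miR-322. It read 12.62 after MI and 12.87 after sham surgery, and the rat probe for miR-503 read 11.56 after MI and 11.76 after sham surgery.

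At day 14 more members differed, in both directions. Of the members 5 were higher (3.52%) and 10 lower (7.04%) by at least 2-fold, 10.6% in all, against a background of 11.8% over all 536 detected miRNA probes (7.09% higher and 4.66% lower). Rat probes stood at 15.7%, with 12.2% higher and 3.48% lower. The members' share past 2-fold is near the background. The split depends on how the arrays are scaled: it was 6 higher and 3 lower with no normalization, 4 and 3 with spike-in scaling, 4 and 12 with cyclic loess and 2 and 23 with centring on detected probes. The median of the 94 members detected on both arrays was 0.07, against 0.12 for all miRNA probes. For 49 of these 94 members (52.1%) every spot of one array lay beyond every spot of the other, against 53.6% over all miRNA probes.

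The largest difference was that of miR-199b*. miR-199 is abundant in fibroblasts and other mesenchymal cells, and miR-199b* names the less abundant arm of the hairpin in the naming of that time. The spots were 11.27, 11.41, 11.44 and 11.37 after MI, against 9.02, 9.17, 9.29 and 9.09 after sham surgery. The difference was 2.23 with a spot SE of 0.07, a 4.69-fold higher level after MI, and it stayed between 2.11 and 2.66 under 9 other ways of processing. Rat probes of related miRNAs can be set beside it. Rat miR-199a-5p read 13.09 after MI and 9.63 after sham surgery, a difference of 3.46. Rat miR-199a-3p read 11.72 after MI and 9.61 after sham surgery, a difference of 2.11. Rat miR-214, which is transcribed with miR-199a, read 12.73 after MI and 9.72 after sham surgery, a difference of 3.02. Of the 5 rat fibroblast and smooth muscle markers 3 were past 2-fold higher, and the range was -0.14 to 3.46. Whether the mouse-only probe read miR-199b or miR-199a was not tested.

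miR-106a belongs to the miR-17 group, known for its role in cell proliferation. Its probe read 8.83 ± 0.08 after MI and 7.74 ± 0.28 after sham surgery, a difference of 1.08 with a spot SE of 0.15. Of the rat probes that share its seed, 4 were also higher after MI, within 2-fold, and that for miR-20b-5p was detected on neither array. Rat miR-106b read 10.35 after MI and 9.48 after sham surgery, a difference of 0.87, rat miR-20a 8.89 after MI and 8.12 after sham surgery, and rat miR-93 9.29 after MI and 8.66 after sham surgery. Rat miR-17-5p was detected only after MI, at 7.96, against 7.33 after sham surgery. The call for miR-106a held under 5 of 9 other ways of processing. At day 2 neither miR-106a nor these 4 rat probes were past 2-fold, with differences between -0.13 and 0.37.

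miR-511-3p lies in an intron of Mrc1, the macrophage mannose receptor. Its probe was detected only after MI, with spots of 8.22, 8.89, 8.10 and 7.98 after MI, against 7.10, 6.04, 7.19 and 7.36 after sham surgery, and was at least 2.07-fold higher, a call that held under 4 of 9 alternatives. The rat probes for miR-511 and miR-511* were detected on neither array. Of the 4 rat leukocyte markers 3 were higher (1.25 to 1.72) and miR-150, a miRNA of lymphocytes, was lower at -1.73. Their part in this result was not tested.

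miR-2137 read 9.80 ± 0.12 after MI and 8.36 ± 0.13 after sham surgery, a 2.72-fold higher level with no spot in common. miR-697 was detected only after MI, at 8.58 ± 0.14 against 7.11 ± 0.18 after sham surgery, and was at least 2.52-fold higher, a call that held under 7 of 9 alternatives and was lost with centring and at 3 background SDs. At day 2 the same probe read 9.19 after MI and 9.06 after sham surgery. Within 2-fold but among the highest were miR-1947* (0.73), miR-1937c (0.70), miR-1937a (0.67), miR-3096-5p (0.66), miR-3069-3p (0.58), miR-3473 (0.57) and miR-1839-3p (0.52), and among probes detected only after MI miR-3066, miR-669d and miR-706.

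Of the 10 lower members 6 were probes of the miR-467 and miR-669 families. In mouse, many miRNAs of the miR-297, miR-466, miR-467 and miR-669 families come from a large cluster in an intron of Sfmbt2, a Polycomb gene. Probes were assigned to these families by number, and where each one is encoded was not checked. RefSeq places rat miR-466b, miR-466c and miR-466d on chromosome 17. Of 70 probes of these families 36 were detected at day 14 (51.4%), against 23.5% of the other mouse-only probes and 25.0% of all miRNA probes. Of the 36, 6 were lower and 0 higher by at least 2-fold, and of the 106 other members 4 were lower and 5 higher. Over all 536 detected miRNA probes 4.66% were lower and 7.09% higher. The median of the 27 detected on both arrays was 0.07, with 15 above 0 and 12 below, and became -0.01 with spike-in scaling, -0.06 with cyclic loess and -0.40 with centring.

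The 5 probes lower in every spot were miR-467e*, miR-669a-3-3p, miR-669m-3p, miR-669b* and the shared probe of miR-669d* and miR-669d-2*. miR-467e* read 10.88 ± 0.14 after MI and 12.12 ± 0.16 after sham surgery, a difference of -1.24. miR-669a-3-3p read 9.35 ± 0.08 after MI and 10.57 ± 0.29 after sham surgery, a difference of -1.21. miR-669m-3p read 9.69 after MI and 10.87 after sham surgery, and miR-669b* 9.54 after MI and 10.56 after sham surgery. The probe of miR-669d* read 9.74 after MI and 10.74 after sham surgery, at the 2-fold line. All 5 carry the star or 3p name. Of other miR-669 probes so named, miR-669l* (-0.79) and miR-669f-3p (-0.39) were below 0. Above it were miR-669c* (0.23), miR-669k* (0.24), miR-669p* (0.37) and the shared probe of miR-669a-3p and miR-669o-3p (0.39). In the miR-467 family, miR-467a* differed by -0.04 and miR-467b* by 0.04, and miR-467c* was detected only after MI. With no normalization or spike-in scaling all 5 were within 2-fold. By the mean of pixels only miR-467e* and miR-669a-3-3p of the 5 kept the call. The sixth, miR-669a-5p with miR-669p, was detected only after sham surgery. It read 7.47 after MI and 8.49 after sham surgery, but 3 of its sham spots lay between 7.29 and 7.66. The other lay at 11.53. At day 2 these families had 27 of 43 probes detected and 0 past 2-fold. The day 2 array read miR-467e* with a probe of another identifier, at 12.88 after MI and 12.89 after sham surgery.

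Rat probes on the array cover miR-466 and miR-297 of these families. At day 14 rat miR-466b read 7.84 after MI and 7.73 after sham surgery, rat miR-466c 7.95 after MI and 7.98 after sham surgery, and rat miR-466d 8.52 after MI and 8.22 after sham surgery. Rat miR-466b-1* differed by 0.20, and miR-466b-2* (0.56) and miR-466c* (0.43) were detected only after MI, with no overlap of spots. Rat miR-297 was not detected on either array at either day.

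The other 4 lower members were miR-1981*, miR-691, miR-709 and miR-1900. miR-1981* read 8.67 ± 0.04 after MI and 10.24 ± 0.14 after sham surgery, a difference of -1.57, and was past 2-fold under all 9 alternatives. miR-691 read 11.03 ± 0.08 after MI and 12.30 ± 0.21 after sham surgery, a difference of -1.27 that was within 2-fold with no normalization and with spike-in scaling, and had been lower at day 2 as well, by -0.45. miR-709 read 13.54 ± 0.02 after MI and 14.55 ± 0.09 after sham surgery, 2.01-fold lower after MI, at the 2-fold line. miR-1900 had a mean of 7.94 after MI and 9.53 after sham surgery, but its sham spots were 14.91, 7.99, 7.60 and 7.61, and by the median of the spots the difference was 0.17. Among members within 2-fold and detected on both arrays miR-677* (-0.86) was lowest, and miR-468 (-0.88), miR-501-5p, miR-26a-2* and miR-1894-5p were detected only after sham surgery.

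Several of the brightest probes at day 14 carry names of disputed miRNAs. miR-720 and miR-1937 have been reported to be fragments of transfer RNAs. The shared probe of miR-1937a and miR-1937b read 15.55 after MI and 15.45 after sham surgery, and miR-720 read 14.33 on both arrays. All 4 probes of this kind on the array were detected, and none was past 2-fold. miR-690 read 13.49 after MI and 13.07 after sham surgery, followed by miR-1186b, miR-3084 and miR-1983 with differences between -0.34 and -0.07.

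Other groups held few detected members. Of the probes listed by miRNA number for the Dlk1-Dio3 cluster, 7 of 27 were detected at day 2 and 8 of 52 at day 14. Where each of them is encoded was not checked. None was past 2-fold on either day, against 3.67% of all miRNA probes at day 2 and 11.8% at day 14. With so few members, the absence of calls is not a result about the cluster. Probes named for a hairpin that also has a rat probe were detected for 18 of 61 at day 2 and 28 at day 14 (21.2%), and miR-511-3p and miR-878-3p were the ones past 2-fold. Among these, miR-1-1*, the other arm of the heart muscle miRNA miR-1, read 8.07 after MI and 8.70 after sham surgery at day 14. The rat probe for miR-1* was detected on neither array of that day. Rat miR-1 read 11.80 after MI and 12.91 after sham surgery, and 4 of the 5 rat heart muscle markers were lower by 2-fold or more.

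By probe identifier 39 mouse-only probes were detected at both days, 23 of them on all 4 arrays without being saturated on any. Of these 23, 8 lay above 0 at both days, 8 below 0 at both days, and 7 changed sign. miR-106a, miR-199b* and miR-882 were among those above 0 at both days, although miR-199b* was below 0 at day 2 without spot set 4, and miR-691, miR-503* and the miR-297a* probe among those below. The signs depend on scaling. At day 2, members above 0 went from 5 of 61 with no normalization to 43 with cyclic loess. At day 14 they went from 25 of 94 with centring to 57 with no normalization. The matching share over all miRNA probes was not computed.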

How the data were processed

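Total RNA from rat hearts carried the label Hy3 and was hybridized to miRCURY LNA arrays, per the labels. The authors deposited scanner intensity for each spot and its local background, read with Mapix 4.5.0, per the file headers. They also deposited the percent of saturated pixels, which was not used. By those headers the day 2 arrays were version 11.0 and took their probe names from miRBase 12.0, whereas the day 14 arrays were of generation 6 and took theirs from miRBase 16.0. Further upstream steps are not given in the sources used here.

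Median foreground at 532 nm was corrected with normexp (offset 50; limma 3.58.1, R 4.3.3). Quantile normalization then put both arrays of each day on one scale, leaving out control and unnamed spots. Log2 values were averaged over 4 spots. The procedure was tested on simulated data. Both simulated arrays of a day were built from its MI array. They did not hold the higher background or the dim spot set of the day 2 sham array. A probe was called at 2-fold. Where only 1 array detected a probe, its fold was treated as a bound: the bright array's level was set against the dim array's own reading or its lowest detected level, whichever was higher. A probe at the scanner's limit in at least 50% of its spots was saturated.

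Members and gene lists were chosen with earlier results of these data known. Named per day were the 10 highest and 10 lowest members seen on both arrays, 5 or fewer a direction among those seen on 1 array, the 10 brightest, all past 2-fold, the 3 nearest to the detection limit on each side, and examples from the lists; a few are not reported here. The number of arrays, 1 per group, limits precision.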

Additional observations from a re-analysis of the deposited data

Results flagged for a closer look

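A pair of members past 2-fold at one day had a difference of the other sign at the other day, and the difference between days was not tested. miR-878-3p differed by -1.33 at day 2 and was detected only after MI at day 14. There it read 7.98 after MI and 7.43 after sham surgery, with a bound of 0.55. Its day 2 difference minus that bound was -1.88, which is a limit and not a measured difference. The probe called miR-669a at day 2 was detected only after MI there, at 8.67 after MI and 8.22 after sham surgery, with a bound of 0.11. At day 14, as miR-669a-5p/miR-669p, it was detected only after sham surgery, with a bound of -1.01. That makes 1.13 between the days, taken from bounds on both. One sham spot of 4 carries that day 14 value.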

How the results depend on the processing

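No paired analysis was possible because each group has 1 array. The deposited value table holds 0 rows that name mouse, so that alternative was not run. At day 2 the lower count of 1 became 9 with no normalization, 3 with centring, 4 with spike-in scaling, 4 with local background subtracted (where 19 were higher) and 3 with no filter on dim probes. miR-878-3p remained lower under all 10 alternatives, from -1.73 to -1.20. At day 14 the 5 higher and 10 lower became 6 higher and 3 lower with no normalization, and 2 higher and 23 lower with centring. They became 4 higher and 3 lower with spike-in scaling, and 17 higher and 18 lower with background subtracted. There were 3 higher and 7 lower by the median of spots, and 3 higher and 8 lower at 3 background SDs. The mean of pixels gave 3 higher and 6 lower, and no filter on dim probes 7 higher and 12 lower. miR-1900 reversed to 0.17 by the median of spots, which leaves its single bright sham spot without weight. miR-199b*, miR-2137 and miR-1981* kept their calls under all 9, and miR-709 under 5. The median over all miRNA probes detected on both arrays at day 14 moved to 0.32 with no normalization, 0.21 with spike-in scaling and -0.18 with centring, and that of the miR-297, miR-466, miR-467 and miR-669 probes to 0.10, -0.01 and -0.40. For the other changed counts the cause was not tested. At day 14, 93 members had a raw foreground under 500 on both arrays, which limits what can be read from dim probes.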
